A study of Homo sapiens with 8 samples.

Results

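MALAT1 and NEAT1 are the genes of 2 long noncoding RNAs that stay in the cell nucleus. They were taken by name from a table of transcript abundances in 2 human pancreatic cancer cell lines, and are 2 of the 62649 genes in that table. Both had been picked with their values in these libraries known, so their levels and differences are given below as a description, without a test. Abundances are in TPM, a unit that corrects for transcript length and has the same total in every library.

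The lines were AsPC-1 and PANC-1, both derived from pancreatic cancers and both labelled as wild type (WT) in genotype, that is, with no engineered change. Cells of each line were grown for 3 days as spheroids in methylcellulose and then kept for 24 h with vehicle, with 10 µM roseoflavin, with 1 nM trametinib, or with both compounds at these doses. Roseoflavin is a bacterial analogue of riboflavin, and trametinib inhibits the MEK kinases of the MAPK pathway. Each line gave 4 libraries, 1 per treatment, or 8 in all, so no treatment group had a replicate and each line stands for 1 cell culture model only. The vehicle libraries carried the epithelial and mesenchymal markers of such lines. In AsPC-1 and PANC-1 respectively, EPCAM, an epithelial adhesion molecule, had 1256 and 16.5 TPM, while VIM, a mesenchymal filament protein, had 816 and 3232 TPM. KRT19, a duct cell keratin, had 2089 and 1032 TPM. The endothelial marker PECAM1 was listed at 0 in both, and PTPRC, the common leukocyte antigen, was listed at 0.006 TPM or less. The deposited TPM hold no read totals, so the sequencing depth behind each value is unknown.

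MALAT1 RNA gathers in nuclear speckles, the compartments in which splicing factors are stored. NEAT1 RNA is the scaffold of paraspeckles, bodies next to the speckles that hold RNA-binding proteins such as SFPQ and NONO. NEAT1 is made in a short form, which ends in an ordinary poly(A) tail, and a long form, which alone builds paraspeckles. MALAT1 and long NEAT1 share an unusual way of ending. RNase P cuts the transcript before a tRNA-like fold, which is released as a small RNA, and the new end has no added poly(A) tail but an encoded A-rich stretch that pairs with U-rich stretches upstream into a triple helix. Such an end bears on what was measured, because the libraries were prepared with a kit that selects RNA by its poly(A) tail.

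The genes lie next to each other on chromosome 11 (GENCODE release 29, GRCh38), on the plus strand. NEAT1 (ENSG00000245532) spans chr11:65422774-65445540 and has 8 annotated transcripts, of which the long one covers 22743 bases and the first short one a span of 3684 bases. MALAT1 (ENSG00000251562) spans chr11:65497688-65506516, has 17 annotated transcripts and starts 52147 bases after the end of NEAT1. Both are annotated as long intergenic noncoding RNA genes. The last 100 bases before the RNase P cut are shown for both, since these are the ends that stand in for a poly(A) tail. They lie at chr11:65506017-65506116 in MALAT1 and at chr11:65445441-65445540 in NEAT1, are written as DNA 5′ to 3′, and have the T-rich runs and the A-rich end in capitals.
MALAT1 end: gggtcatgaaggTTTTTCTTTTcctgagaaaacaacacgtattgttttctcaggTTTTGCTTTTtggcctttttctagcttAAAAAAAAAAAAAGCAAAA
NEAT1 end: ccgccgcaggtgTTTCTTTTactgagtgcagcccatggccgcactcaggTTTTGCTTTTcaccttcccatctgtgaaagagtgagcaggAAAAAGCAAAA
The second T-rich run, of 10 bases, and the last 11 bases are the same letters in both genes. The A-rich end is longer in MALAT1, with 19 bases against 11. Downstream of the cut lie the tRNA-like small RNAs, mascRNA of MALAT1 at chr11:65506117-65506173 and its NEAT1 counterpart at chr11:65445541-65445598. They are shown because each has its own row in the table, and capitals mark the bases that are the same in an alignment of the pair.
mascRNA: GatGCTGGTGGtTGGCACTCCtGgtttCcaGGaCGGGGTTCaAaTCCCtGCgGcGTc
NEAT1 small RNA: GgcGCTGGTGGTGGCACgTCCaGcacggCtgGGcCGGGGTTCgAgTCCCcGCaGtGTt
Of 59 aligned columns, 40 held the same base in both small RNAs (67.8%).

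In AsPC-1, MALAT1 stood at 175 TPM with vehicle, 123 TPM with roseoflavin, 120 TPM with trametinib and 111 TPM with both compounds. The vehicle library was the high one and the 3 treated libraries lay close together. In PANC-1, MALAT1 stood at 243 TPM with vehicle, 175 TPM with roseoflavin, 241 TPM with trametinib and 168 TPM with both. Here the libraries fell into pairs: the pair without roseoflavin was high and the pair with roseoflavin was low, whether or not trametinib was present. NEAT1 did not share this pattern in PANC-1. Its level in AsPC-1 was 121 TPM with vehicle, 87.8 TPM with roseoflavin, 92.3 TPM with trametinib and 86.4 TPM with both, again with the vehicle library alone at the top. In PANC-1 it was 96.5 TPM with vehicle, 102 TPM with roseoflavin, 96.9 TPM with trametinib and 101 TPM with both, so the highest PANC-1 library was only 5.36% above the lowest.

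**Figure D1:**
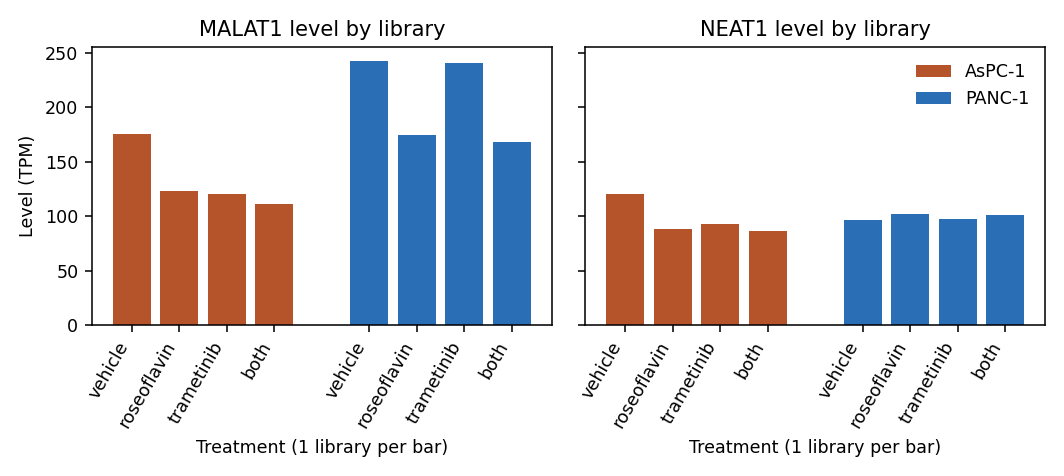
Level of MALAT1 (left) and NEAT1 (right) in TPM in each of the 8 libraries, 1 bar per library, grouped by line. MALAT1 is lower in both PANC-1 libraries with roseoflavin than in both without it, whereas NEAT1 in PANC-1 stays between 96.5 and 102 TPM.

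Among the 261 long noncoding genes averaging 10 TPM or more, a set drawn up after the values had been seen, MALAT1 ranked 13th with PANC-1 vehicle and 18th with AsPC-1 vehicle. Its lowest rank was 26th, in AsPC-1 with trametinib. NEAT1 ranked between 26th and 34th in the 8 libraries. By gene-level TPM, neither RNA was among the most abundant transcripts of these libraries. The kit selects RNA by its poly(A) tail and can miss forms without one, so ranks and level neighbours describe these rows and not the total RNA. They also depend on the gene length used for TPM, which is not known here. For NEAT1 this matters, since its long form covers 22743 bases and the first short one a span of 3684 bases. With vehicle, MALAT1 was 547th (AsPC-1) and 470th (PANC-1) among the 19122 genes that passed the filter on low values (at least 1 TPM in 2 or more libraries), and NEAT1 was 813th and 1425th. In the order of levels with vehicle, MALAT1 lay in AsPC-1 between HNRNPUL2-BSCL2 (175.2 TPM), a readthrough gene, and MIR429 (175.0 TPM), a microRNA gene. In PANC-1 it lay between CTTN, an actin-binding protein gene at 242.9 TPM, and MIR5047, at 242.7 TPM. NEAT1 lay between the zinc transporter gene SLC39A1 (120.9 TPM) and the cyclin gene CCNB1 (120.5 TPM) in AsPC-1, and between TOMM22 (96.6 TPM), of the mitochondrial import pore, and ERLIN1 (96.3 TPM) in PANC-1. These neighbours in the order differed from MALAT1 and NEAT1 by less than the SD of MALAT1 or NEAT1 over the libraries of the line.

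Differences between libraries were taken on the log2(TPM + 1) scale, between libraries that differ in 1 compound only. In PANC-1, MALAT1 differed by -0.47 with roseoflavin alone and by -0.52 when roseoflavin was added to trametinib, which in TPM is a difference of -28.1% and -30.2% from the matched library. The mean of these 2 differences was -0.50 ± 0.029 (SD, n = 2 matched differences). This SD shows how far the roseoflavin difference varied with and without trametinib, and not the spread of replicates. Only 0.790% and 1.22% of the 9368 genes averaging 10 TPM or more had a lower difference in the same libraries. With trametinib, MALAT1 in PANC-1 had differences of -0.01 alone and -0.05 on top of roseoflavin. The difference between both compounds and vehicle in PANC-1 was -0.53.

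In AsPC-1 the MALAT1 difference with roseoflavin was -0.51 alone but -0.12 on top of trametinib, and with trametinib it was -0.54 alone but -0.15 on top of roseoflavin. Their means were -0.31 ± 0.277 for roseoflavin and -0.34 ± 0.277 for trametinib (SD, n = 2 matched differences each). The SD is the same number for both compounds by construction, since the same libraries enter both, and it does not measure the spread of replicates. The SD is close to the mean in both cases, because the comparisons that use the vehicle library are the large ones. Leaving out that library leaves -0.12 for roseoflavin and -0.15 for trametinib. The share of the 9368 genes with a lower difference was 1.89% for roseoflavin alone and 21.1% for roseoflavin on top of trametinib. NEAT1 had the same shape in AsPC-1. It differed by -0.45 with roseoflavin alone and by -0.09 on top of trametinib, and by -0.38 with trametinib as the sole compound and by -0.02 when it was added to roseoflavin. Without the vehicle library, then, the NEAT1 values are -0.09 and -0.02. The 2 comparisons that use the vehicle library share it, so they are not separate evidence.

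In PANC-1, NEAT1 differed by 0.07 with roseoflavin alone and by 0.06 on top of trametinib, and 74.3% and 68.0% of the 9368 genes had a lower difference. These values lie well inside the range of most genes. With trametinib, NEAT1 differed by 0.01 alone and by -0.01 on top of roseoflavin. The sign of the roseoflavin difference of NEAT1 was thus negative in both AsPC-1 comparisons and positive in both PANC-1 comparisons, while that of MALAT1 was negative in all 4. Whether the lines differ in this was not tested for either RNA.

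**Figure D2:**
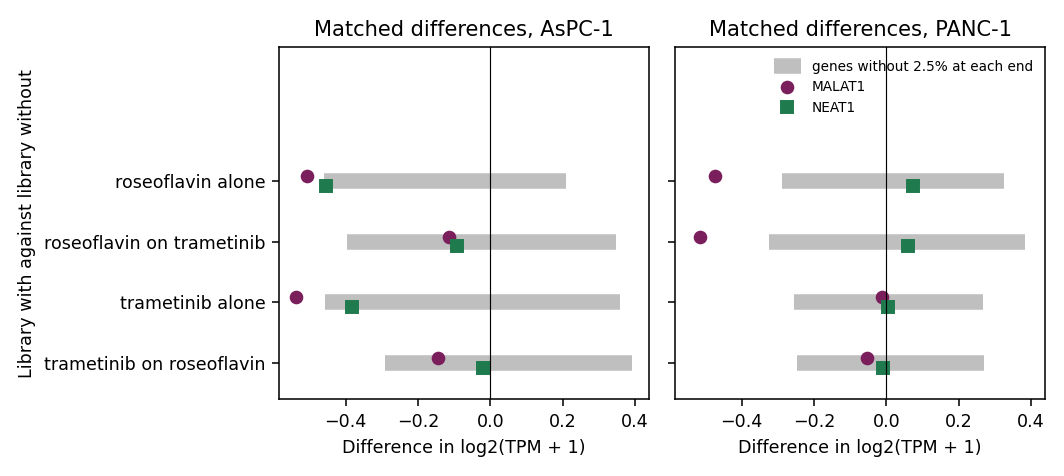
Difference in log2(TPM + 1) of MALAT1 (circles) and NEAT1 (squares) between libraries that differ in 1 compound, with AsPC-1 on the left and PANC-1 on the right. Grey bars span the middle range, without the lowest and highest 2.5%, of the 9368 genes averaging 10 TPM or more in the same comparison, and MALAT1 lies below the bar in both PANC-1 comparisons of roseoflavin and in the AsPC-1 comparisons of roseoflavin alone and trametinib alone, which share the vehicle library.

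Since TPM have a fixed total, the share taken by transcripts of the mitochondrial genome moves every other value. It was 41.2% with vehicle, 44.1% with roseoflavin, 42.2% with trametinib and 41.3% with both in AsPC-1, where it was nearly the same in the vehicle library and in the library with both compounds, the highest and the lowest in MALAT1. In PANC-1 it was 25.6%, 23.7%, 24.8% and 22.8% in the same order, so it was lower in the libraries with roseoflavin, in which MALAT1 was also low. With mitochondrial transcripts taken out and TPM rescaled, the mean MALAT1 difference for roseoflavin was -0.53 in PANC-1 and -0.29 in AsPC-1. The AsPC-1 vehicle library held the highest value of its line for 28.5% of 9293 genes averaging 10 TPM or more, against 32.4% for the trametinib library and 10.2% for the roseoflavin library. In bulk RNA of this kind, fewer cells that make a transcript and less of it per cell cannot be told apart.

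The ratio of MALAT1 to NEAT1 in TPM is not altered by a single factor that multiplies all values of a library. It was 1.45, 1.40, 1.30 and 1.28 in AsPC-1 with vehicle, roseoflavin, trametinib and both. In PANC-1 it was 2.52 with vehicle and 2.49 with trametinib, but 1.72 with roseoflavin and 1.67 with both. The ratio was therefore higher in every PANC-1 library than in any AsPC-1 library, and within PANC-1 it separated the libraries with roseoflavin from those without.

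Between the lines, MALAT1 averaged 132 ± 29 TPM over the AsPC-1 libraries and 207 ± 40.8 TPM over those of PANC-1 (SD, n = 4 libraries of different treatments). The groups overlapped, since the AsPC-1 vehicle library at 175 TPM was above the lower PANC-1 libraries. NEAT1 averaged 96.8 ± 16.1 TPM and 99.1 ± 2.70 TPM in the same lines, and the lines again overlapped. On the log2 scale the mean of the 4 treatment-matched differences, PANC-1 minus AsPC-1, was 0.64 ± 0.243 for MALAT1 and 0.05 ± 0.253 for NEAT1 (SD, n = 4). These values depend on scaling, because the median line difference over all 19122 genes was itself 0.55. With mitochondrial transcripts taken out, that median was 0.22, MALAT1 differed by 0.25 and NEAT1 by -0.34, which turns the sign of NEAT1. With quantile normalization the median was 0.04, MALAT1 differed by 0.26 and NEAT1 by -0.38. MALAT1 was thus on the PANC-1 side under each of the 3 scalings and NEAT1 under 1 of them.

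The table also lists short genes that lie inside MALAT1 and NEAT1, and these show which stretch of each RNA gave reads. Their TPM rest on short lengths, and whether a read in such a row was also counted for the host gene is not given in the sources used here, so they are compared only with themselves across libraries. In NEAT1, 3 conserved segments of 105 to 159 bases lie within the first part of the gene, inside the span of both the short and the long form. The first, at chr11:65423273-65423392, stood at 2313 TPM with vehicle, 1526 TPM with roseoflavin, 1577 TPM with trametinib and 1559 TPM with both in AsPC-1. In PANC-1 it stood at 2183, 2137, 2129 and 2248 TPM in the same order. This segment thus had the pattern of NEAT1 as a whole, with 1 high library in AsPC-1 and level values in PANC-1. The second segment, at chr11:65423638-65423742, ranged from 964 to 1625 TPM in AsPC-1, where the vehicle library was the highest, and from 1320 to 1634 TPM in PANC-1, where the library with both compounds was the highest. The third, at chr11:65423960-65424118, lay between 1199 and 1633 TPM in AsPC-1 and between 1620 and 1672 TPM in PANC-1.

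MIR612, a microRNA gene at chr11:65444458-65444557, lies 17945 bases past the farthest end of the short NEAT1 transcripts and so within the long form only. Its row stood at 7.91 TPM with vehicle, 9.94 TPM with roseoflavin, 3.27 TPM with trametinib and 4.28 TPM with both in AsPC-1. In PANC-1 the values were 8.91, 8.28, 8.61 and 5.92 TPM. In AsPC-1, the libraries with trametinib were the low ones, with log2 differences of -1.06 alone and -1.05 on top of roseoflavin, a pattern that the NEAT1 row did not have. The depth behind this low row is unknown, and mature microRNA is too short for the kit used, so the row cannot be read as the level of the microRNA. The NEAT1 tRNA-like small RNA shown above was listed at 0 in all 8 libraries.

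Within MALAT1, a conserved segment of 95 bases at chr11:65502914-65503008 stood at 1128, 747, 742 and 775 TPM in AsPC-1 with vehicle, roseoflavin, trametinib and both. In PANC-1 it stood at 1693, 1283, 1646 and 1269 TPM. These values repeat the pattern of MALAT1 itself, with 1 high library in AsPC-1 and 2 high libraries without roseoflavin in PANC-1. The roseoflavin differences of the segment in PANC-1 were -0.40 alone and -0.38 on top of trametinib. The mascRNA row stood at 67.6, 79.4, 65.1 and 56.4 TPM in AsPC-1 and at 150, 129, 106 and 127 TPM in PANC-1, in the same order of treatments. In TPM as deposited, the mascRNA row was thus higher in each PANC-1 library than in any AsPC-1 library. Line differences depend on scaling. The mitochondrial share was 44.1% in the AsPC-1 library with roseoflavin (79.4 TPM) and 24.8% in the PANC-1 library with trametinib (106 TPM). With these shares taken out of the totals, this pair does not keep its order, so the separation does not hold under that scaling. Within each line, its libraries were not ordered like those of MALAT1. Some annotated MALAT1 transcripts run past the cut through mascRNA, so reads of uncut MALAT1 can fall in that row. TALAM1, the antisense transcript of MALAT1, was between 0.018 and 0.077 TPM in all libraries, and no strand setting of the counting is given in the sources used here.

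**Figure D3:**
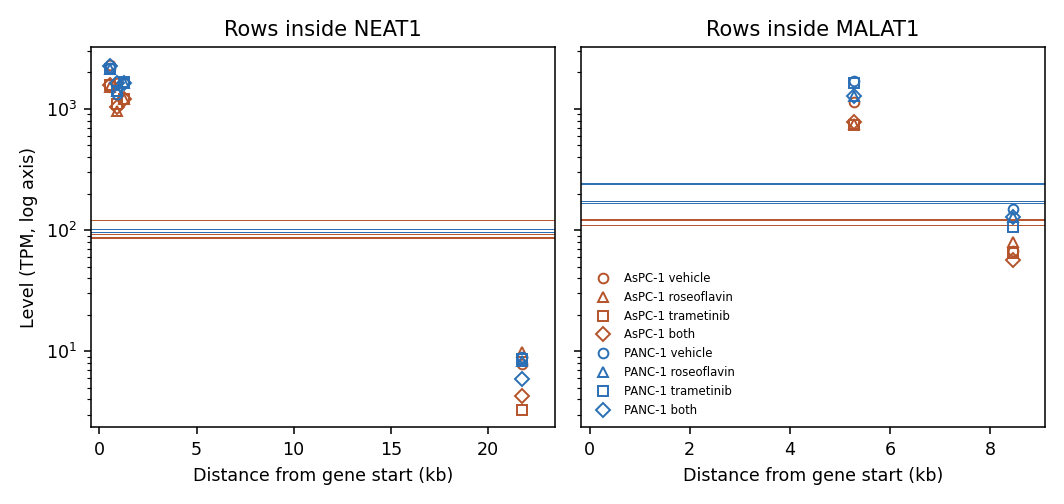
Level in TPM (log axis) of the short genes inside NEAT1 (left) and MALAT1 (right) against the distance from the start of the host gene in kb, 1 symbol per library, with the level of the host gene in each library as a horizontal line for orientation only. MIR612 near the far end of NEAT1 lies between 3.27 and 9.94 TPM, and the row listed at 0 and TALAM1 are left out.

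Genes that act with MALAT1 and NEAT1 were followed in lists. A linear model with separate compound effects for each line was fitted with limma to all 19122 genes, with a Benjamini-Hochberg adjusted p under 0.05 as the threshold. It called 0 genes for roseoflavin in AsPC-1, in PANC-1 or for the difference between the lines (0% of 19122 each), and 0 for trametinib in AsPC-1, in PANC-1 or for the difference (0% each). At an unadjusted p under 0.05 there were 2163, 2074 and 2227 genes for roseoflavin and 2691, 919 and 1854 for trametinib in these orders. Without replicates, the residual of this fit, with 2 degrees of freedom, is the departure of the libraries from additive compound effects. Spread between libraries and a joint effect of the compounds cannot be told apart in it. The residual was shared by both lines, so the SE of a compound effect is the same in AsPC-1 and PANC-1. SEs and p-values given for a line therefore do not measure that line alone, nor the spread of replicates. No list member passed in any of these 6 comparisons, and the medians and signs that follow are descriptions of fitted values.

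The 20 nuclear speckle genes, which encode splicing factors and speckle scaffolds, had a median fitted difference with roseoflavin of -0.14 in PANC-1, where all 20 values were negative, 10 of them with an unadjusted p under 0.05. The median over all genes in that comparison was 0, and 2074 of the 19122 genes had an unadjusted p under 0.05. In AsPC-1 their median was -0.04, with 13 of 20 values negative, beside -0.03 over all genes. SRSF2, a splicing factor that marks speckles, stood at 260 and 263 TPM in the PANC-1 libraries with vehicle and with trametinib, and at 223 and 228 TPM in those with roseoflavin and with both. Its fitted difference was -0.21 (SE 0.0744, limma adjusted p = 0.460). This SE draws on both lines: the matched roseoflavin differences of SRSF2 were -0.22 and -0.20 in PANC-1, but -0.07 and 0.19 in AsPC-1. PRPF4B, a splicing kinase, differed by -0.20 (SE 0.0453, limma adjusted p = 0.398) in PANC-1. In AsPC-1 the largest values were those of the splicing factor SRSF11 (-0.28, SE 0.0489, limma adjusted p = 0.370) and of LUC7L3, an RNA-binding protein of the splicing machinery (-0.20, SE 0.0366, limma adjusted p = 0.380). The PANC-1 libraries that were low in MALAT1 were therefore also those with lower values of speckle genes, by a smaller margin.

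The 24 paraspeckle genes had a median of -0.08 with roseoflavin in PANC-1, with 20 of 24 values negative and 4 at an unadjusted p under 0.05, and of 0.03 in AsPC-1, with 10 of 24 negative. Over all genes the medians were 0 in PANC-1 and -0.03 in AsPC-1, and 2074 of 19122 genes had an unadjusted p under 0.05 in PANC-1. SFPQ, which NEAT1 needs for its stability, stood at 120 and 121 TPM in PANC-1 without roseoflavin and at 104 TPM in both libraries with it. Its fitted difference was -0.21 (SE 0.0430, limma adjusted p = 0.386). In AsPC-1 the largest values were 0.18 for SMARCA4, a chromatin remodeller found in paraspeckles (SE 0.0830, limma adjusted p = 0.504), and -0.11 for RBMX (SE 0.0361, limma adjusted p = 0.412). NONO, the partner of SFPQ, was named after its values had been seen, and lay between 163 and 165 TPM in all 4 PANC-1 libraries. The paraspeckle genes thus had values of both signs in each line.

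Genes linked to the 3′ ends of MALAT1 and NEAT1 were measured too. Their roles differ, so a median over them mixes genes of the unusual ends with genes of the ordinary short NEAT1 end. The 15 genes of this list, among them RNase P subunits, ELAC2, which trims the tRNA-like fold, and CPSF6, which favours the short NEAT1 end, had medians of 0.06 in AsPC-1 and -0.03 in PANC-1 with roseoflavin. The largest values were 0.20 for POP7 (SE 0.106) and 0.17 for RPP25 (SE 0.0366) in AsPC-1, and -0.21 for POP5 (SE 0.104) and -0.18 for RPP38 (SE 0.0448) in PANC-1, all of them subunits of RNase P or its relative RNase MRP. The 10 nuclear RNA decay genes, which serve the exosome that clears nuclear transcripts, had medians of -0.03 and -0.02. ZFC3H1, of the complex that guides polyadenylated nuclear RNA to the exosome, differed by -0.21 in AsPC-1 (SE 0.0514), and PABPN1, the nuclear poly(A)-binding protein, by -0.12 in PANC-1 (SE 0.0786).

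Of 18 other long noncoding RNAs, 15 passed the filter. Their median with roseoflavin was 0.00 in both lines, so the MALAT1 pattern was not seen across this list. TUG1, an RNA found in nucleus and cytoplasm, differed by -0.12 in AsPC-1 (SE 0.0418, limma adjusted p = 0.429). OIP5-AS1 differed by -0.12 in AsPC-1 and by 0.23 in PANC-1 (SE 0.0825 in each), and MEG3, which was near 0 in AsPC-1, by -0.21 in PANC-1 (SE 0.0596). For the 261 long noncoding genes averaging 10 TPM or more, the median difference for roseoflavin alone and on top of trametinib was -0.12 and -0.04 in AsPC-1. It was 0.01 and 0.00 in PANC-1. Of these genes, 2.68% and 4.21% had a lower difference than MALAT1 in the 2 PANC-1 comparisons.

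Genes around the locus were measured as well. Of 17 neighbouring genes, 16 passed the filter, and with roseoflavin they had a median of -0.04 (AsPC-1) and -0.07 (PANC-1), beside -0.03 and 0 over all genes. Their values were negative for 10 of 16 genes in AsPC-1 and for 13 of 16 in PANC-1. The largest PANC-1 values were those of the kinase gene MAP3K11 (-0.15, SE 0.0593) and of EHBP1L1 (-0.14, SE 0.0508), both smaller than the MALAT1 mean of -0.50. In AsPC-1, FAM89B differed by -0.12 (SE 0.0420).

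Lists of stress programs in which NEAT1 or MALAT1 is known to respond gave the following. The 14 hypoxia targets had a median of -0.51 with roseoflavin in AsPC-1, with 12 values negative, and of 0.36 in PANC-1, with 14 positive. Their sign with roseoflavin was thus that of NEAT1 in each line, with larger values than the NEAT1 means of -0.27 and 0.07. The single AsPC-1 comparisons were less alike. Hypoxia medians were -0.40 with roseoflavin alone and -0.63 on top of trametinib, against -0.45 and -0.09 for NEAT1. With trametinib they were 0.10 alone and -0.17 on top of roseoflavin, against -0.38 and -0.02 for NEAT1. ADM, which encodes a vessel-dilating peptide, differed by -1.09 in AsPC-1 (SE 0.115, limma adjusted p = 0.355), and SLC2A1, the main glucose transporter gene, by 0.56 in PANC-1 (SE 0.0463, limma adjusted p = 0.221). NDRG1 differed by -1.0 in AsPC-1 and by 0.46 in PANC-1 (SE 0.176 in each). The part of these genes in the NEAT1 values was not tested. The 10 heat shock targets had medians of -0.09 in AsPC-1, with 7 values negative, and -0.10 in PANC-1, with all 10 negative, beside -0.03 and 0 over all genes. The chaperone gene HSPH1 differed by -0.18 in PANC-1 (SE 0.0387, limma adjusted p = 0.397). The 14 p53 targets had medians of -0.01 in both lines, with 0.59 for the stress cytokine GDF15 in PANC-1 (SE 0.0836, limma adjusted p = 0.299).

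**Figure D4:**
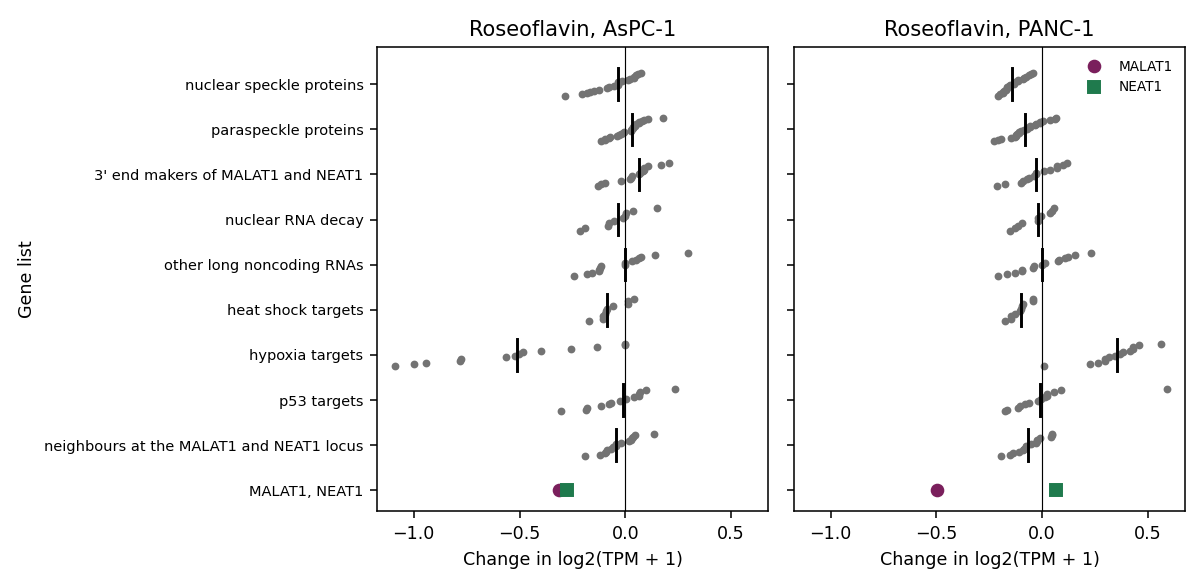
Fitted change in log2(TPM + 1) with roseoflavin for each gene of 9 lists (dots, with the median as a vertical line) in AsPC-1 (left) and PANC-1 (right), with the mean matched difference of MALAT1 and NEAT1 in the lowest line. In PANC-1 MALAT1 at -0.50 lies below every listed gene, and all 20 nuclear speckle genes lie below 0.

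With trametinib, the speckle medians were -0.06 (AsPC-1) and -0.02 (PANC-1) and both paraspeckle medians were 0.00, beside 0.02 and 0.01 over all genes in these lines. MALAT1 had mean differences of -0.34 and -0.03 with trametinib in these lines, and NEAT1 of -0.20 and 0.00. In PANC-1 each matched trametinib difference of MALAT1 and NEAT1 lay between -0.05 and 0.01 on the log2 scale.

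Between the lines, limma called 84.8% of all genes (62.9% higher and 21.9% lower in PANC-1), so a call says little about a list. With quantile normalization, 8067 of 19122 genes were called higher and 7290 lower. Without mitochondrial transcripts, 9942 of 20467 genes were called higher and 6419 lower. Of the 20 speckle genes, 19 were higher and 1 lower in PANC-1, but 12 and 5 with either other scaling. Of the 24 paraspeckle genes, 16 were higher and 3 lower, but 7 and 13 with quantile normalization and 11 and 11 without mitochondrial transcripts. U2AF2, a splicing factor of the speckles, was higher in PANC-1 by 1.97 (SE 0.0463, limma adjusted p = 2.02e-05) and by 1.60 and 1.59 with the other scalings. LUC7L3 was higher by 1.22 (SE 0.0259, limma adjusted p = 1.66e-05) and by 0.76 and 0.84. SMARCA4 was lower in PANC-1 by all 3 scalings, with a difference of -1.56 (SE 0.0587, limma adjusted p = 6.04e-05) that became -2.12 and -1.98. METTL16, which binds the MALAT1 triple helix, was higher by 1.52 (SE 0.0409, limma adjusted p = 2.71e-05) and by 0.98 and 1.22. For comparison, MALAT1 differed by 0.64, 0.26 and 0.25 with these scalings.

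The genes whose pattern over the 8 libraries was most like that of MALAT1 were found by Pearson's r of log2(TPM + 1), with the mean of each line taken off, over 8629 named genes averaging 10 TPM or more. The libraries share their line mean and their scaling, so r is a description. The 5 closest genes were DGKQ (r = 0.999), a diacylglycerol kinase gene, ACIN1 (0.986), which encodes a splicing-related protein on the speckle list, PILRB (0.986), CDK10 (0.981), a cyclin-dependent kinase gene, and AP1G2 (0.980). DGKQ stood at 26.4, 22.5, 22.2 and 21.5 TPM in AsPC-1 and at 12.8, 11, 12.7 and 10.8 TPM in PANC-1, with vehicle, roseoflavin, trametinib and both. It thus had 1 high library in AsPC-1 and 2 in PANC-1, as MALAT1 did, over a smaller range. The median r with MALAT1 was 0.778 for the 20 speckle genes and 0.557 for 23 paraspeckle genes, against -0.02 for all 8629.

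NEAT1 itself had an r of 0.568 with MALAT1 and was 1339th of the 8629 genes in that order. The genes most like NEAT1 were EPS8L3 (0.978), which was listed at 0 in all 4 PANC-1 libraries, CPNE7 (0.977), a copine gene, NARF (0.973), HOOK2 (0.970), which encodes a microtubule linker, and ATP8B3 (0.967). None of them was among the 5 closest to MALAT1. HOOK2 stood at 26.3, 19.4, 21.2 and 19.4 TPM in AsPC-1 and at 13.0, 14.8, 13.3 and 13.9 TPM in PANC-1 in the same order of treatments. The median r with NEAT1 was 0.263 for the speckle genes and 0.029 for the paraspeckle genes, against 0.036 for all genes. The likeness to NEAT1 rests on the high vehicle library of AsPC-1, since NEAT1 hardly varied in PANC-1.

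**Figure D5:**
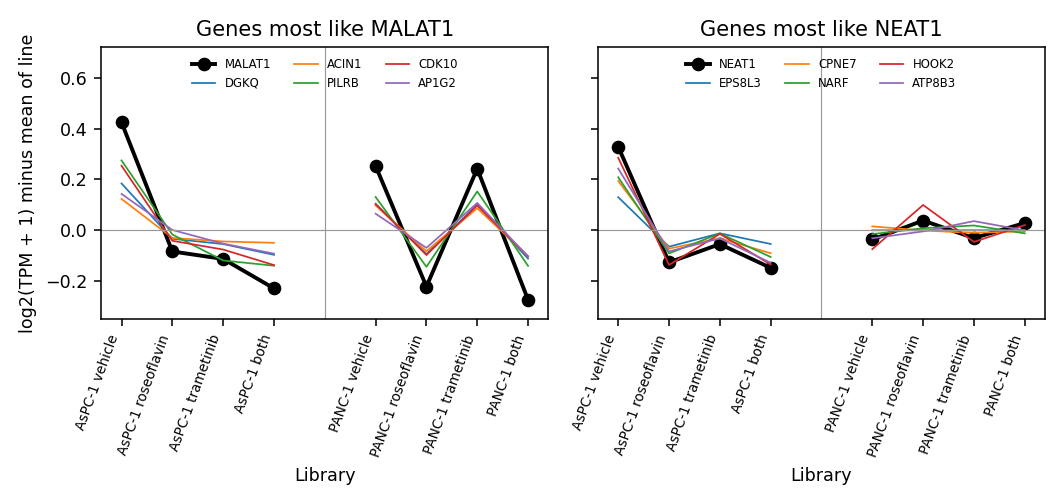
log2(TPM + 1) minus the mean of the line in each of the 8 libraries for MALAT1 (left, black) and NEAT1 (right, black) with the 5 genes most like each (thin lines). Lines only connect libraries of 1 cell line. The 5 genes were picked for their likeness in these same libraries, so the shared pattern follows from the choice, and those of MALAT1 vary over a smaller range.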

How the data were processed

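RNA was sequenced from 8 libraries, 1 for each line and treatment, made with the TruSeq stranded mRNA kit per the labels' protocols. The authors deposited 1 table of gene abundances, whose 8 value columns are TPM per the file headers. STAR 2.7.3a, HTSeq 2.0.2 and hg38 are named in the submitters' processing notes, which give no counting options here. The table had 62649 genes with an identifier, 41719 of them named, and 985926 blank rows that were dropped. Every library summed to 1000000 TPM, so depth is unknown and no counting interval can be given.

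Values were analysed as log2(TPM + 1), which understates changes of low genes. Both members were among 19122 genes that reached 1 TPM in 2 libraries or more. limma 3.58.1 in R 4.3.3 fitted a line mean and additive effects of each compound within each line, with a trended prior variance and two-sided p-values adjusted over all genes. The model was run on simulated data with known changes as a check of its estimates. The share of changes it recovered is not reported here, so a count of 0 genes does not show that changes were absent. MALAT1, NEAT1 and the 10 gene lists (142 genes, 141 found) were chosen with earlier results of these data known. Genes named were, per list, the 2 largest roseoflavin changes in each line among genes averaging 10 TPM or more, and members past the threshold (up to 4, by p), the 5 genes most correlated with each member, and its neighbours in level. Some genes that met this rule are not reported here. The list of rows that share the locus held MIR612, TALAM1 and mascRNA. Lists were matched by gene name, and mascRNA was not found by name, so it was not among the list genes fitted. Its row, found by identifier, was above the filter value in all 8 libraries. TALAM1 did not pass the filter, and MIR612 did. GENCODE release 29 (GRCh38) gave positions and sequences, by gene identifier. Nothing in the labels says that libraries came from separate cultures. Alternatives were a pseudocount of 0.1, other filters, quantile normalization, removal of mitochondrial transcripts and leaving out each library.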

Additional observations from a re-analysis of the deposited data

Results flagged for a closer look

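The roseoflavin difference of NEAT1 was negative in both AsPC-1 comparisons and positive in both PANC-1 comparisons, and the lines differed by 0.34 on the log2 scale (PANC-1 minus AsPC-1, mean of 2 matched differences each). This difference was not tested, and the AsPC-1 side is -0.09 without the vehicle library. The second conserved segment of NEAT1 had the same signs, with a difference of 0.58. The MIR612 row had the opposite signs, with a difference of -0.58 from low values of 3.27 to 9.94 TPM. Among the lists, the median of the hypoxia targets differed by 0.88 and that of the 261 long noncoding genes by 0.085, with negative values in AsPC-1 and positive ones in PANC-1. The median of the genes linked to the 3′ ends differed by -0.081 for roseoflavin and by 0.10 for trametinib. None of these differences was tested beyond the fit of single genes, and 0 genes passed in it (limma, 2227 for roseoflavin and 1854 for trametinib at an unadjusted p under 0.05).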

How the results depend on the processing

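Each compound comparison called 0 genes with every alternative that kept all libraries, including 1 effect over both lines. Fits that left out 1 library had 1 residual degree of freedom and are no check on these counts. Line calls numbered 16215, and 8509 of the 9368 genes averaging 10 TPM or more, where fewer genes are tested, and 14130 to 15159 when 1 library was left out. The mean MALAT1 difference for roseoflavin in PANC-1 (-0.50) was -0.54 with quantile normalization and -0.53 without mitochondrial transcripts. Its line difference (0.64) was 0.26 and 0.25 with these scalings and 1.00 in the trametinib libraries only. NEAT1 in PANC-1 was 0.056 and 0.031 for roseoflavin and -0.027 and -0.018 for trametinib with these scalings. The line difference of NEAT1 (0.05) reversed to -0.38 with quantile normalization, -0.34 without mitochondrial transcripts and -0.32 in the vehicle libraries only. Of 289 values recomputed, 276 stayed within their limits, 10 moved beyond them and 3 reversed, and the cause of these moves was not tested. The limits were a set ratio for counts and the SD of the matched differences for MALAT1 and NEAT1. Many of the 276 say little. They are compound counts of 0 that stayed at 0, or single matched differences, which always lie within the SD of their own pair. The tally is therefore no measure of robustness. All 20 speckle genes were negative for roseoflavin in PANC-1 under each alternative, chosen after seeing the data. No paired analysis was possible because each group has 1 library, so replicate numbers pair nothing, and libraries were matched by treatment only. With unknown depth, no limit could be set for values near 0, such as TALAM1.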
